A study of Mus musculus with 27 samples.

Results

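The change in muscle RNA between day 3 and day 21 after volumetric muscle loss (VML) was examined in 10 of the 27 samples of the series, the 5 taken at day 3 and the 5 taken at day 21. All genes were kept whose FPKM (fragments per kilobase of gene, scaled to the size of the library) reached 0.5 in at least 5 of the 27 samples, which left 14630 of the 54532 genes in the table. Both groups came from 8-week-old male C57BL/6 mice in which 40% of the tibialis anterior, a fast muscle of the shin, had been cut away at partial thickness, and no agent, transgene or implant was given to either. The design text has the excision on 1 side and the methods of the study have it on both. The remaining samples were 5 muscles without injury, which serve as a reference level here, 6 taken at day 7 and 6 at day 14. The labels number the samples of a group without saying that each is a separate animal, so the p-values measure the spread between samples.

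After muscle injury, neutrophils and then monocyte-derived macrophages enter the tissue and clear debris, while satellite cells, the stem cells of muscle, divide, become myoblasts and fuse into new fibres that pass through embryonic forms of the contractile proteins before the adult ones. Fibroblastic cells lay down a provisional matrix and then collagen, and in VML the lost volume is not rebuilt. In a bulk sample, fewer cells of a type and less RNA per cell cannot be told apart, and this holds for every gene described here.

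The reads recovered from FPKM and gene length totalled 14376395 to 19819115 per sample over both groups. Genes of muscle fibres were abundant in every sample: Acta1, the skeletal actin, had an FPKM of 11868 to 26006 at day 3 and 18782 to 36004 at day 21, and Ckm, the muscle creatine kinase, 942 to 1860 and 1606 to 3483. Some samples stood apart from their group. On the first principal component of all 27 samples, which held 41.4% of the variance, the day 3 samples lay between 27 and 75.7 and the day 21 samples between -25.4 and -15.2, with the uninjured muscles at -48.0 to -43.4. Day 3 replicate 4 was the day 3 sample farthest from day 21 and day 3 replicate 5 the nearest. Day 3 replicate 5 had a mean correlation of 0.949 to its own group and 0.942 to day 21. Day 7 replicate 5 lay at 72.4 on this component, within the range of the day 3 samples. Its mean correlation was 0.905 to its own group and 0.966 to day 3. Whether the labels of day 7 replicate 5 and day 3 replicate 5 are right was not tested. Day 21 replicate 5 held the highest day 21 value in 32.8% of all tested genes and the lowest in 32.1%. Results without 1 of these samples are given for some genes and lists only.

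Of the 14630 genes, 3728 (25.5%) differed between day 21 and day 3 at an adjusted p of 0.05, by limma on log2(FPKM + 1) with Benjamini-Hochberg adjustment. At day 21, 1351 genes (9.23% of those tested) were higher and 2377 (16.2%) were lower. The change was more than 2-fold in 1236 genes (8.45%), 276 higher and 960 lower, and more than 8-fold in 1 gene that was higher and 44 that were lower. All 5 day 21 samples lay outside the range of the 5 day 3 samples in 2800 genes (19.1% of those tested), called or not. The direction went with the level: 16.6% of the calls among genes with a mean FPKM under 1 were higher at day 21, against 33.1% from 1 to 10, 48.8% from 10 to 100 and 66.8% over 100. Without day 3 replicate 4 the calls numbered 2316, with 587 higher and 1729 lower, and without day 3 replicate 3 the higher calls numbered 745.

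**Figure D1:**
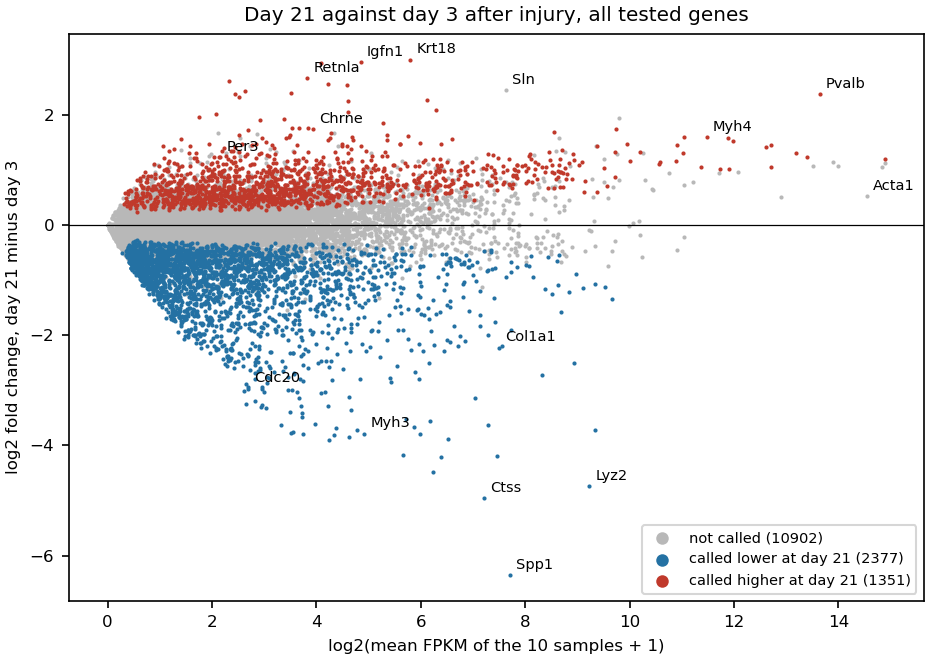
Each point is 1 of the 14630 tested genes, with the log2 of its mean FPKM + 1 over the 10 samples on the x axis and its log2 fold change, day 21 minus day 3, on the y axis. The 2377 genes called lower reach -6.35 (Spp1), the 1351 called higher reach 3.01 (Krt18), and 16.6% of the calls are above 0 where the mean FPKM is under 1 against 66.8% where it is over 100.

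How FPKM was scaled between samples bears on the share of higher and lower calls. FPKM had been divided by a number of reads that exceeded the sample's own recovered reads at day 3 (ratios of 1.14 to 1.48) and fell short of them at day 21 (ratios of 0.776 to 0.964). Of the calls, 36.2% were higher at day 21 with FPKM as deposited and with median-ratio scaling, 50.04% with quantile normalization (2108 higher, 2105 lower), 6.54% with each sample's own total (314 higher, 4484 lower) and 3.37% with TPM, in which every sample sums to the same value (169 higher, 4841 lower). TPM moved the median log2 fold change of all genes by -0.41, own totals by -0.30 and quantile normalization by 0.09. Median-ratio scaling moved it by 8.3e-05 and kept all 3728 calls. The deposited FPKM was thus already close to that scaling, and the equal share of calls is no separate check. The data do not show which scaling is nearer to RNA per fibre or per muscle.

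**Figure D2:**
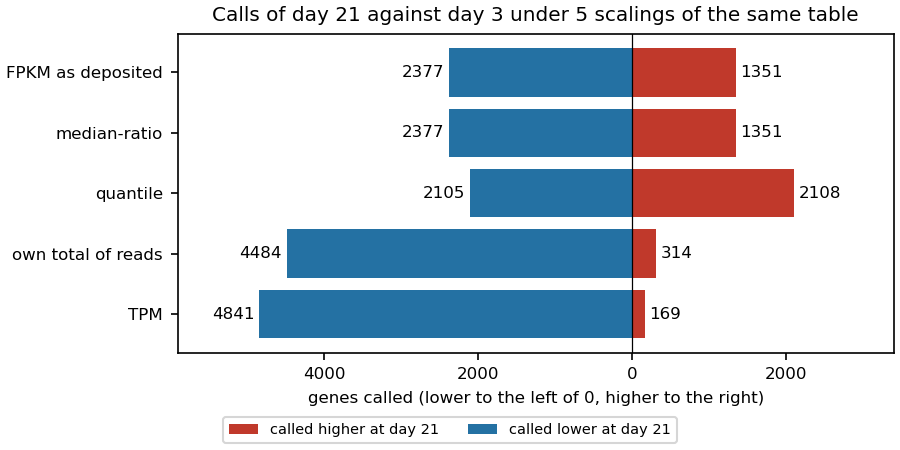
Bars give the number of genes called lower at day 21 (left of 0) and higher (right of 0) for the FPKM as deposited and 4 rescalings of the same table. Of these, median-ratio scaling kept every call, so its bars repeat those of the deposited FPKM. The lower calls range from 2105 to 4841 and the higher calls from 169 to 2108.

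Macrophage genes were much lower at day 21, and 1 of them had the largest decrease of all tested genes. Spp1 (ENSMUSG00000029304, chromosome 5 from 104435118 to 104441050), which encodes osteopontin, a secreted protein of wound macrophages, had an FPKM of 394, 261, 630, 763 and 15.5 in day 3 replicates 1 to 5 and of 1.04, 4.38, 1.77, 2.06 and 1.41 at day 21. The groups did not overlap, although day 3 replicate 5 was far below the other day 3 samples. Its log2 fold change was -6.35 (SE 0.86, adjusted p = 3.41e-05), and its mean at day 21, 2.13 ± 1.31 (SD, n = 5), stood beside 2.51 ± 1.90 in the uninjured muscles.

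Cd68 (ENSMUSG00000018774, chromosome 11 from 69664213 to 69666153), a lysosomal protein used to mark macrophages, had 141, 94.4, 200, 251 and 31.7 at day 3 and 4.62, 6.81, 4.46, 3.28 and 2.92 at day 21. Every day 21 sample was below every day 3 sample, and the log2 fold change was -4.48 (SE 0.65, adjusted p = 4.63e-05). The list of 23 tested monocyte and macrophage genes had 22 called lower and none higher, with a median log2 fold change of -3.05 against -0.0042 over all tested genes, and the same 22 and 0 without day 3 replicate 4. Among them were Lyz2, lysozyme (-4.74), C1qb, a chain of the first complement component (-4.20), Csf1r, the receptor of the macrophage growth factor CSF1 (-3.05), Adgre1, which encodes F4/80 (-3.03), and Spi1, the transcription factor PU.1 of myeloid cells (-3.14). The summed FPKM of the list ranged from 746 to 3636 in the day 3 samples, from 72.4 to 127 in the day 21 samples and from 38.0 to 54.6 without injury. At day 21 no gene of the list was at 0 in all 5 samples.

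The genes of lipid-handling and scar-associated macrophages followed, with 16 of 18 tested called lower and a median of -2.18. Ctss, a lysosomal protease (-4.96), Gpnmb, a lysosomal glycoprotein (-3.80), and Trem2, a lipid-sensing receptor (-3.76), had adjusted p-values of 3.41e-05, 0.00026 and 4.3e-05. Chil3, a chitinase-like protein of alternatively activated macrophages, had 10.9, 7.83, 23.5, 24.3 and 0.576 at day 3 and was listed at 0 in 4 of the 5 day 21 samples and at 0.109 in the other. Arg1, arginase 1 of the same macrophage state, had 2.45, 1.43, 5.05, 3.59 and 0.527 at day 3 and was listed at 0 in all 5 day 21 samples. Retnla (ENSMUSG00000061100, chromosome 16 from 48842551 to 48844461), which encodes a secreted protein also linked to that state, went the other way, with 3.60, 2.86, 4.30, 2.12 and 1.02 at day 3 and 24.6, 34.7, 13.6, 30.4 and 13.9 at day 21. Its groups did not overlap, the log2 fold change was 2.67 (SE 0.65, adjusted p = 0.00384; 2.16 with TPM), and the uninjured muscles had 9.52 ± 3.45.

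Genes of other immune cells and signals were lower as well. Of 6 tested neutrophil genes 5 were called lower, with S100a8 and S100a9, the calprotectin subunits, at -2.94 and -2.63, while 8 further neutrophil genes, Ly6g, Mpo and Elane among them, did not reach the minimum FPKM. All 7 tested MHC class II genes were lower, at a median of -1.61; Cd74, the invariant chain, had 265 ± 78.2 at day 3 and 75.1 ± 10.7 at day 21, and H2-Aa remained 1.41 log2 units above the uninjured muscles at day 21 (adjusted p = 0.0347). Of 20 interferon response genes 16 were lower at a median of -1.08, led by Ifi27l2a at -2.28. Without day 3 replicate 4 the count was 14, and without day 3 replicate 5 it was 11 at a median of -0.84. Of 20 genes for actin remodelling, the Arp2/3 complex that branches actin filaments among them, 18 were lower, at a median of -1.24.

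Of 23 chemokine genes, 12 were lower and 1 was higher. Ccl7 and Ccl2, which attract monocytes through the receptor CCR2, had log2 fold changes of -3.77 and -2.88. Ccl8, a related monocyte attractant, had 27.1, 27.3, 41.2, 22.8 and 101 at day 3 and 4.06, 4.56, 4.32, 1.04 and 4.38 at day 21 (-3.12), and at day 21 it was still 2.02 log2 units above the uninjured muscles (adjusted p = 0.0179). These CC chemokine genes are related in sequence, and whether any reads fit more than 1 of them was not tested. Ccl27a was the member called higher (1.18, adjusted p = 0.00755); 4 of its day 3 samples had 1.33 to 2.01, day 3 replicate 5 had 7.08, and day 21 had 4.57 to 9.35.

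Of the 10 tested lymphocyte genes none was called in either direction, and the median was -0.01. Ighg2c, an immunoglobulin heavy-chain constant gene expressed by plasma cells and not on that list, had 0.181, 0.231, 0.200, 0.596 and 0.106 at day 3 and 6.39, 4.42, 4.50, 6.47 and 0.743 at day 21. The groups did not overlap and the log2 fold change was 1.97 (SE 0.32, adjusted p = 0.000114), with day 21 replicate 5 far below the other day 21 samples. Igkc, the kappa light chain, had 1.28 to 2.18 at day 3 and 5.38 to 11.9 at day 21, but its log2 fold change of 1.59 was not called (SE 0.73, adjusted p = 0.11), and Ighm, the constant gene of IgM, had 0.73 (adjusted p = 0.154).

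The genes of dividing cells were lower at day 21 almost without exception: 27 of 28 tested cell cycle genes and 21 of 22 DNA replication genes were called, at medians of -1.45 and -0.93. Without day 3 replicate 4 the counts were 24 and 18. Cdc20 (ENSMUSG00000006398, chromosome 4 from 118432901 to 118437352), the activator of the anaphase-promoting complex, had 9.41, 9.79, 13, 13.3 and 6.29 at day 3 and 0.412, 0.0804, 1.40, 0.534 and 0 at day 21. The groups lay far apart, with a log2 fold change of -2.97 (SE 0.39, adjusted p = 3.03e-05). Ccnb2, a B-type cyclin, and Plk1, a mitotic kinase, had -2.80 and -2.25, and Mki67, which encodes the proliferation marker Ki-67, -1.95. The cell cycle gene not called was Ccne2, a cyclin of the entry into S phase, whose values overlapped (0.430 to 0.866 at day 3, 0.387 to 0.836 at day 21).

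The promoters of 3 of these genes with large decreases are shown, chosen among cell cycle genes whose windows held both motifs named below. The windows span 250 bases before to 50 after the RefSeq start on GRCm38.p6, are written 5′ to 3′ on the strand of the gene, and carry in capitals the CCAAT box, the site of the factor NF-Y, and TTTGAA, a form of the cell cycle homology element.
Cdc20, chr4:118437294-118437593 (minus strand): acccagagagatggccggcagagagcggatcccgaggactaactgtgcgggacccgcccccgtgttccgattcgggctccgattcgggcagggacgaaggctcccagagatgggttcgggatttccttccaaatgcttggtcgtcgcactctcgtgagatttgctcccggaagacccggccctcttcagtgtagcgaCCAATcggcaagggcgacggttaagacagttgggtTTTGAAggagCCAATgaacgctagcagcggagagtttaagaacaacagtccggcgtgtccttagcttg
Ccnb2, chr9:70421505-70421804 (minus strand): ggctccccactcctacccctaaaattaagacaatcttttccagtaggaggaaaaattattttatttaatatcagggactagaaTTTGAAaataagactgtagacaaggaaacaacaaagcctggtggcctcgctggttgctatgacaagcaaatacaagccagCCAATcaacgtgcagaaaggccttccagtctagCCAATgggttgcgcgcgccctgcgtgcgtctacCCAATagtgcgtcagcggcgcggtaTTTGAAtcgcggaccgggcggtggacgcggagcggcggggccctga
Plk1, chr7:122159185-122159484 (plus strand): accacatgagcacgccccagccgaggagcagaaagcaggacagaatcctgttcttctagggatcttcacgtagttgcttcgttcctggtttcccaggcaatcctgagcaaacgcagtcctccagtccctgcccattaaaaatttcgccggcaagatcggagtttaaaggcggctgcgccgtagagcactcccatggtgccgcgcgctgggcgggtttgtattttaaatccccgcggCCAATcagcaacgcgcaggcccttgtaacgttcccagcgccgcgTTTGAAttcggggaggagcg
Searched on both strands, CCAAT was in 19 of the 22 windows of the cell cycle list (86.4%), which covered 21 of its 28 genes, against 37.4% of all 32851 windows of that length. TTTGAA was in 15 of the 22 (68.2%) against 17.9% of all. In the DNA replication list, CCAAT was in 11 of 21 windows and TTTGAA in 2. A match of either motif may share its end letters with a match of the other, and a match describes the sequence only.

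Of 22 genes of the integrated stress response and heat shock 8 were lower, 1 was higher and 13 were not called, at a median of -0.48. Psat1 and Phgdh, enzymes of serine synthesis from that list, both had -2.40 (adjusted p = 4.63e-05 and 0.000271) and Asns, asparagine synthetase, -1.61. The genes of the cytosolic ribosome had 21 of 76 called lower (27.6%, against 16.2% of all tested genes) and none higher, at a median of -0.45. The count was 7 without day 3 replicate 4, 8 without day 3 replicate 3 and 11 without day 21 replicate 5, and with TPM it was 75. Rpl3, the widely expressed form of ribosomal protein L3, had 116, 136, 162, 188 and 63.7 at day 3 and 47.6, 53.8, 41.7, 47.0 and 37.0 at day 21 (-1.45, adjusted p = 0.000704).

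**Figure D3:**
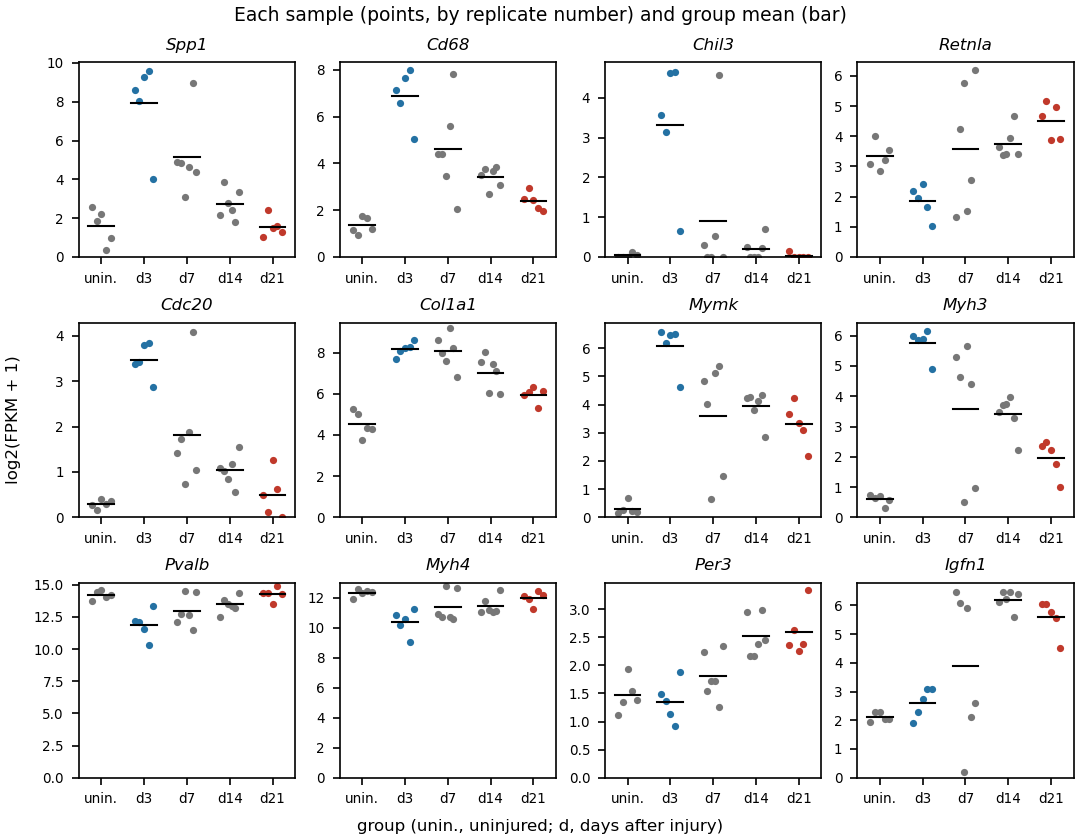
Each of the 12 panels plots log2(FPKM + 1) of 1 gene in the 27 samples, grouped by time after injury, with points for samples in order of replicate number and bars for group means. Spp1, Cd68, Chil3, Cdc20, Col1a1, Mymk and Myh3 are high at day 3, whereas Retnla, Pvalb, Myh4, Per3 and Igfn1 are high at day 21, and day 3 replicate 5 is the lowest day 3 point for Spp1, Cd68, Chil3, Retnla, Cdc20, Mymk and Myh3.

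Collagen and provisional matrix genes were lower at day 21 but not all at the uninjured level. Col1a1 (ENSMUSG00000001506, chromosome 11 from 94936224 to 94953042), the main chain of type I collagen, had 207, 272, 294, 311 and 397 at day 3 and 60.5, 66.6, 80.6, 39.4 and 68.5 at day 21. No sample overlapped, the log2 fold change was -2.22 (SE 0.39, adjusted p = 0.000238), and day 21 was still 1.44 log2 units above the uninjured muscles (adjusted p = 0.0392). Of 10 fibrillar collagen genes 7 were lower and 1 was higher, at a median of -1.39 and with the same counts without day 3 replicate 4. Col3a1, the type III collagen of early scars, had -1.55 (adjusted p = 0.00428).

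Col24a1, a minor fibrillar collagen, was the member that was higher: it had 0.239, 0.0963, 0.129, 0.202 and 1.17 at day 3 and 1.89, 1.53, 0.618, 0.917 and 5.04 at day 21. Day 3 replicate 5 lay above day 21 replicates 3 and 4, so the groups overlapped, and the log2 fold change was 1.02 (SE 0.26, adjusted p = 0.00525). The genes that process collagen had 19 of 20 called lower at a median of -1.07. Lox, which cross-links it, had -2.32 and Serpinh1, its chaperone HSP47, -1.62.

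Of 18 provisional and matricellular matrix genes 14 were lower, at a median of -1.64. Postn, which encodes periostin, had 35.8, 58.2, 44.0, 41.1 and 63.5 at day 3 and 4.99, 7.60, 7.68, 3.89 and 6.87 at day 21 (-2.78, SE 0.48, adjusted p = 0.000199). Tnc, tenascin C, had -2.87 and Cthrc1, a secreted protein of activated fibroblasts, -3.61. Among 11 small leucine-rich proteoglycans 3 were lower (27.3%, against 16.2% of all tested genes), with Bgn, biglycan, at -2.07. Dcn, decorin, had 32.7 ± 12.8 at day 3 and 33.2 ± 6.51 at day 21 (0.07, SE 0.27, adjusted p = 0.882). Basement membrane genes had 2 of 13 lower (15.4%, close to the 16.2% of all tested genes) and 1 higher (7.69% against 9.23%), and none was lower without day 3 replicate 3, 4 or 5. The gene called higher was Lamb2, a laminin chain of the neuromuscular junction (0.65, adjusted p = 0.0152; 0.05 with TPM), which had 14.7 to 15.8 in 4 day 3 samples and 28.3 in replicate 5.

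Of 15 metalloproteases and their inhibitors 9 were lower and 1 was higher. Timp1, an inhibitor, had -2.85 and at day 21 was 1.61 log2 units above the uninjured muscles (adjusted p = 0.0411). Mmp13, a collagenase, had 1.67 to 6.26 at day 3 and 0 to 0.288 at day 21 (-2.02, adjusted p = 0.0159). Timp4, the inhibitor form of muscle and heart, was higher, with 2.24, 1.91, 0.675, 0.730 and 4 at day 3 and 6.01, 6.84, 6.10, 6.71 and 12.2 at day 21 (1.64, SE 0.48, adjusted p = 0.014). The 14 tested genes of fibro-adipogenic progenitors, the mesenchymal cells that make matrix, had a summed FPKM of 353 to 499 at day 3 and 260 to 351 at day 21, and the part of their number in the collagen result was not tested.

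The genes of fast adult fibres were higher at day 21. Myh4 (ENSMUSG00000057003, chromosome 11 from 67238029 to 67260446), the myosin heavy chain of type IIB fibres, had 1861, 1166, 1507, 535 and 2416 at day 3 and 4449, 3802, 2467, 5628 and 4744 at day 21. All day 21 samples exceeded the day 3 samples, by a narrow gap between 2416 and 2467, and the log2 fold change was 1.61 (SE 0.43, adjusted p = 0.00796; 0.98 with TPM). At day 21 its mean of 4218 ± 1179 did not differ from the uninjured 5195 ± 838 at the threshold (-0.34, adjusted p = 0.708).

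Pvalb (ENSMUSG00000005716, chromosome 15 from 78191114 to 78206400), the calcium buffer parvalbumin of fast fibres, had 4607, 4395, 2997, 1264 and 10251 at day 3 and 21060, 20737, 11560, 30992 and 19850 at day 21. The groups did not overlap, and the change of 2.39 (SE 0.53, adjusted p = 0.00174; 1.76 with TPM) brought day 21 to 20840 ± 6896 beside 19260 ± 4256 without injury. Of 25 fast sarcomere genes 17 were higher and none lower at a median of 1.01, of which 9 were called with TPM (median 0.38), 10 with quantile normalization and 9 without day 3 replicate 4. Myh1 and Myh2, the heavy chains of types IIX and IIA, were among the 8 not called, with 1143 ± 443 against 1192 ± 462 for Myh1 and 89.7 ± 65.4 against 78.8 ± 86.8 for Myh2. Of 21 genes of excitation and calcium handling 10 were higher and 1 was lower, at a median of 0.84 (2 higher and 2 lower with TPM, median 0.22). Trdn, triadin of the calcium release complex, had 1.58 (adjusted p = 0.00537). The member lower was Casq2, the calsequestrin of slow and cardiac muscle (-1.32, adjusted p = 0.0324), whose call was lost when any of 6 of the 10 samples was left out, at adjusted p-values of 0.0513 to 0.0733.

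Some developmental and slow forms of the contractile proteins were lower at day 21. Of 11 developmental sarcomere genes 3 were lower, 1 was higher and 7 were not called, at a median of -0.63. The share lower was 27.3%, against 16.2% of all tested genes, and the share higher 9.09%, against 9.23%. Myh3 (ENSMUSG00000020908, chromosome 11 from 67078300 to 67102291), the embryonic myosin heavy chain, had 62.6, 57.0, 58.0, 69.6 and 28.8 at day 3 and 4.13, 4.65, 3.63, 2.40 and 1.02 at day 21. Neither group came near the other, and the log2 fold change was -3.78 (SE 0.68, adjusted p = 0.000286). Tnnt2, the cardiac and embryonic troponin T, had -2.60 and Myl4, the embryonic light chain, -2.29 (adjusted p = 0.000159 and 0.00337). Of 13 slow sarcomere genes 4 were lower (30.8%, against 16.2% of all tested genes), none higher and 9 were not called, at a median of -0.83. Among them Tnnc1, slow troponin C, had -2.56 and Tnni1, slow troponin I, -2.15. Tnnc1 had 5.51 to 10.8 in 4 day 21 samples and 35.9 in replicate 4.

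The fusion gene Mymk was lower at day 21 but above the uninjured level. Mymk (ENSMUSG00000009214, chromosome 2 from 27061636 to 27072179), which encodes the fusion protein myomaker, had 94.8, 71.0, 88.3, 89.9 and 23.6 at day 3 and 11.5, 18, 9.08, 7.53 and 3.56 at day 21. Both replicates numbered 5 were the lowest of their group, and the groups did not overlap. The log2 fold change was -2.77 (SE 0.65, adjusted p = 0.0029), and day 21 was 3.00 log2 units above the uninjured muscles (adjusted p = 0.0125), which had 0.242 ± 0.214. Mymx, myomixer, had -2.29 (adjusted p = 0.0338) and Myog, myogenin, -2.13 (adjusted p = 0.0473). Without day 21 replicate 5 both calls were lost (adjusted p = 0.122 and 0.124), as they were when any of 5 samples was left out for Mymx and any of 8 for Myog.

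Of 23 myogenic regulators 6 were lower (26.1%, against 16.2% of all tested genes) and 1 was higher (4.35% against 9.23%). Their median was 0.03 (-0.55 with TPM). Myod1, the determination factor of myoblasts, had 75.1 ± 25.9 at day 3 and 52.0 ± 13.5 at day 21 (-0.48, adjusted p = 0.312), and day 21 was 1.37 log2 units above the uninjured muscles (adjusted p = 0.023). Pax7, which marks satellite cells, had 1.15 ± 0.265 and 0.714 ± 0.190 (-0.33, adjusted p = 0.137).

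Of 4 subunit genes of the acetylcholine receptor described here, the channel that receives the motor nerve, Chrne was called. Chrne (ENSMUSG00000014609, chromosome 11 from 70614883 to 70619216), the epsilon subunit of adult junctions, had 5.59, 9.04, 2.38, 1.92 and 15.9 at day 3 and 16.8, 17.7, 14.0, 31.9 and 27.6 at day 21. The groups overlapped through day 3 replicate 5, and the log2 fold change was 1.75 (SE 0.45, adjusted p = 0.00556; 1.21 with TPM). Chrng, the gamma subunit of embryonic and denervated muscle, had 19.1, 18.8, 19.3, 24.7 and 1.94 at day 3 and 10.1, 10.9, 6.72, 12.5 and 3.46 at day 21. It was not called (-0.66, adjusted p = 0.403), and day 21 was 3.10 log2 units above the uninjured muscles (adjusted p = 0.0037), where it was near 0 at 0.0599 ± 0.0502.

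Chrna1, the alpha subunit, had 42.0 ± 17.1 and 35.0 ± 17.2 (-0.43, adjusted p = 0.627) and Chrnd, the delta subunit, 9.16 ± 5.01 and 10.5 ± 4 (0.23, adjusted p = 0.769). At day 21 they stood 2.62 and 2.55 log2 units above the uninjured muscles (adjusted p = 0.0146 and 0.00559). Over 16 genes of the receptor and junction, 1 was higher, 1 was lower and 14 were not called. The calls were 6.25% in each direction, against 9.23% higher and 16.2% lower of all tested genes. In day 21 replicate 5 Chrna1 was 4.94 against 37.1 to 47.2 in the other 4 samples, and Chrnd 3.43 against 11.2 to 13.1.

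Some of the largest increases, those of Krt18 and Aldh3a1 among them, were in genes hardly expressed without injury. Krt18 (ENSMUSG00000023043, chromosome 15 from 102028180 to 102032027), a keratin of simple epithelia, had 5.74, 14.9, 8.33, 9.90 and 8.5 at day 3 and 133, 159, 73.6, 116 and 18 at day 21, beside 0.185 ± 0.0985 without injury. The groups did not overlap, and the log2 fold change was 3.01 (SE 1.04, adjusted p = 0.0344). Its partner Krt8 had 3.59 to 6.05 at day 3 and 48.1, 80.8, 37.7, 31.4 and 7.50 at day 21 (2.55, SE 0.88, adjusted p = 0.0334). Both calls are near the threshold: they were lost when any of 7 samples for Krt18 and any of 8 for Krt8 was left out, at adjusted p-values of 0.0521 to 0.0757 and 0.0538 to 0.0856, and with TPM.

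Igfn1 (ENSMUSG00000051985, chromosome 1 from 135953578 to 136006342), a protein of the muscle Z-disc, had 2.70, 3.88, 5.65, 7.44 and 7.53 at day 3 and 64.7, 64.7, 53.1, 45.9 and 21.9 at day 21. Every day 21 sample was well above day 3, and the change of 2.96 (SE 0.76, adjusted p = 0.0058; 2.40 with TPM) held without any of the 10 samples, at adjusted p-values up to 0.0162. Without injury Igfn1 was not near 0, with log2(FPKM + 1) of 1.93 to 2.30, beside 1.89 to 3.09 at day 3. Sln, sarcolipin, the inhibitor of the calcium pump, had 34.4, 45.9, 34.6, 55.8 and 138 at day 3 and 433, 531, 303, 265 and 125 at day 21, and with the overlap of both replicates numbered 5 it was not called (2.46, SE 1.12, adjusted p = 0.11). Aldh3a1 (ENSMUSG00000019102, chromosome 11 from 61207537 to 61218421), an aldehyde dehydrogenase, had 0.0484 to 0.222 at day 3 and 9.67, 9.40, 4.70, 15.2 and 0.646 at day 21 (2.63, SE 0.37, adjusted p = 4.51e-05), against 0.0714 ± 0.0839 without injury.

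Of 15 genes that muscle induces after nerve loss, 2 were higher, 2 were lower and 11 were not called, at a median of -0.16. The calls were 13.3% in each direction, against 9.23% higher and 16.2% lower of all tested genes. Hdac4, a histone deacetylase of that response, had 2.02, 2.26, 2.09, 2.57 and 1.52 at day 3 and 5.81, 6.4, 3.77, 6.74 and 3.69 at day 21 (1, SE 0.27, adjusted p = 0.00787). Gadd45a, a stress gene, had 35.6 ± 12.4 and 86.3 ± 38.2 (1.18, adjusted p = 0.168), with day 21 replicate 5 at 25.5 against 82.1 to 129 in the others. Runx1, a transcription factor, had 4.05 ± 1.67 and 2.88 ± 1.23 (-0.37, adjusted p = 0.519) and stood 1.68 log2 units above the uninjured muscles at day 21 (adjusted p = 0.0188). Fbxo32, the ubiquitin ligase atrogin-1, had 13.2 ± 5.99 and 13.7 ± 3.55 and lay 1.19 log2 units below the uninjured muscles at day 21 (-1.19, adjusted p = 0.0274). The 13 tested genes of Schwann cells and nerve had 1 higher and 1 lower, 7.69% each. Their summed FPKM was 33.1 to 45.5 at day 3 and 31.5 to 129 at day 21.

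Day 21 replicate 5 was the lowest of its group for Krt18, Krt8, Igfn1, Aldh3a1, Ighg2c, Mymk, Mymx, Myog, Chrna1, Chrnd, Sln and Gadd45a, and the highest for Per1, Per2, Per3, Timp4, Col24a1 and mt-Co1. The values of this sample are given above or below, except for Mymx and Myog, for which the results without it are given. The cause of these values was not tested.

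Genes of mitochondrial respiration were higher at day 21, in numbers that depended on the scaling and on which samples were kept. Complex I, the NADH dehydrogenase, had 32 of 37 genes called higher and none lower at a median of 0.96. With TPM 4 were called (median 0.34), with own totals 9, with quantile normalization 35, and with the letter of the sample name as a block 9. The count was 6 without day 3 replicate 4, 9 without day 3 replicate 3 and 21 without day 21 replicate 5. Ndufa13 (ENSMUSG00000036199, chromosome 8 from 69894180 to 69902558), one of its subunits, had 208, 268, 138, 113 and 312 at day 3 and 446, 540, 390, 444 and 654 at day 21. The groups did not overlap, day 3 replicate 4 was the lowest, and the log2 fold change was 1.33 (SE 0.36, adjusted p = 0.0088; 0.70 with TPM). Ndufs7, an iron-sulfur subunit, had 1.14 (adjusted p = 0.00972).

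Complexes II and III had 10 of 16 higher at a median of 0.81, with none called and a median of 0.19 with TPM, 1 called with own totals, and 2 without day 3 replicate 3 or without day 3 replicate 4. ATP synthase had 11 of 18 higher at a median of 0.74. With TPM 1 of its genes was higher and 1 lower (median 0.13), with own totals 2 and 1, and without day 3 replicate 3 and without day 3 replicate 4 the higher calls were 3 and 2.

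The citric acid cycle had 11 of 23 higher at a median of 0.63, with none called and a median of 0.02 with TPM, and with 3 called without day 3 replicate 3 and 2 without day 3 replicate 4. Idh3g, a subunit of isocitrate dehydrogenase, had 94.2, 93.5, 68.1, 53.5 and 96.7 at day 3 and 163, 151, 159, 125 and 168 at day 21 (0.94, SE 0.20, adjusted p = 0.00121). Fatty acid oxidation had 7 of 23 higher at a median of 0.44, with 4 called without day 3 replicate 3 and 2 without day 3 replicate 4; with TPM none was higher, 1 was lower and the median was -0.16. Fabp3, a fatty acid carrier, had 1.10 (adjusted p = 0.0161, and 0.0655 without day 3 replicate 4).

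Of the 35 tested genes encoded by mitochondrial DNA 3 were higher (8.57%, against 9.23% of all tested genes) and none lower, at a median of 0.92. None was called higher with TPM (1 lower, median 0.31), without day 3 replicate 3, without day 3 replicate 4 or without day 21 replicate 5. mt-Co1, a subunit of cytochrome c oxidase, had 21518, 20749, 12491, 9564 and 23499 at day 3 and 35146, 43224, 31300, 20111 and 86762 at day 21 (1.21, SE 0.43, adjusted p = 0.0408, lost when any of 5 samples was left out, at up to 0.13). Reads of the mitochondrial genome made up 8.5% to 16.8% of all reads at day 3 and 11.1% to 35.1% at day 21, the highest being in replicate 5. The summed FPKM of the macrophage list, 746 to 3636 at day 3 and 72.4 to 127 at day 21, fell while genes of fast fibres, respiration and muscle glycolysis rose. Its part in those results was not tested.

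For some proteins with a muscle form and a widely expressed form, the muscle gene was higher and the other lower at day 21. The pairs shown were chosen after their values were seen, and all such pairs were not counted. Of 16 cytochrome c oxidase genes 7 were higher and 2 lower at a median of 0.79, with 2 higher and 3 lower with TPM and 1 of each without day 3 replicate 4. Cox6a2, the muscle form of a cytochrome c oxidase subunit, had 1520, 1674, 837, 554 and 1635 at day 3 and 2429, 2520, 2535, 2668 and 2650 at day 21 (1.16, SE 0.42, adjusted p = 0.0414), and Cox6a1, the form of other tissues, 196, 178, 220, 237 and 165 and then 117, 117, 103, 98.0 and 129 (-0.81, SE 0.25, adjusted p = 0.0178). Neither gene's groups overlapped. Cox8b and Cox8a had 1.46 and -0.76, and the muscle subunit Cox7a1 had 1.47. Slc25a4 and Slc25a5, ADP/ATP carriers, had 1.15 and -1.30.

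In glycolysis Pgam2, the muscle phosphoglycerate mutase, had 2150, 2539, 1430, 748 and 3356 at day 3 and 5650, 5244, 4240, 5873 and 6528 at day 21 (1.59, SE 0.44, adjusted p = 0.01; 0.96 with TPM), and Pgam1 had 16.9, 9.65, 31.4, 32.6 and 9.88 and then 2.52, 2.63, 4.85, 3.31 and 2.45 (-2.20, SE 0.37, adjusted p = 0.000174). Both were without overlap. Eno3, the muscle enolase, had 1.03 (adjusted p = 0.0382) and Eno1 -1.54 (adjusted p = 0.000257). Without day 3 replicate 4 the calls of Cox6a2 (adjusted p = 0.149), Cox6a1 (0.0557), Cox8b (0.0565), Slc25a4 (0.0759) and Eno3 (0.156) were lost, whereas those of Cox8a, Slc25a5, Pgam1, Pgam2 and Eno1 held. The calls of Cox6a2 and Eno3 were each lost when any of 7 of the 10 samples was left out. Pgam1, Cox8a and the Slc25a carriers have processed copies elsewhere in the genome with which reads could be shared.

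**Figure D4:**
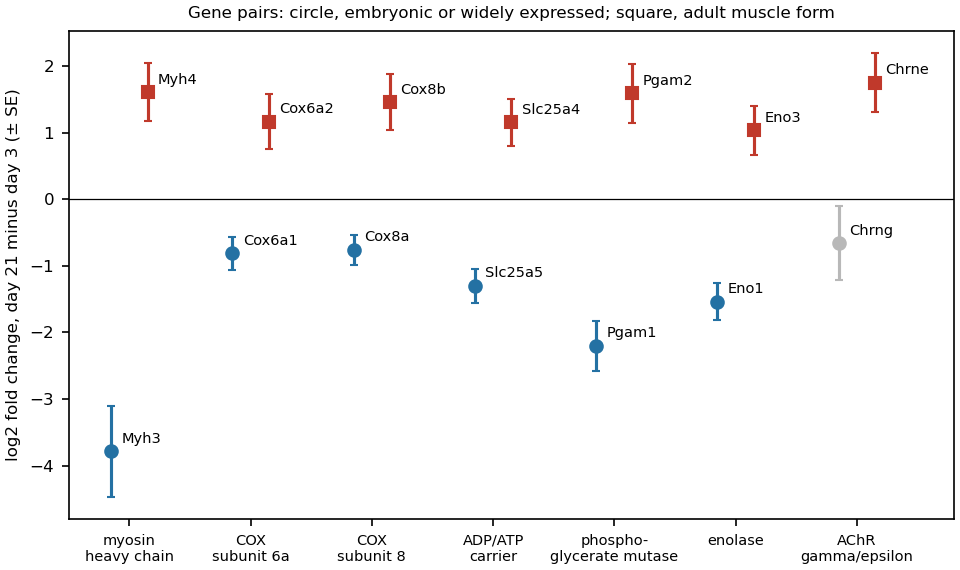
Points are log2 fold changes, day 21 minus day 3, with bars of 1 SE, for 7 pairs of genes; circles mark the embryonic or widely expressed form and squares the adult muscle form. All squares lie above 0, from 1.03 (Eno3) to 1.75 (Chrne), and all circles below, from -3.78 (Myh3) to -0.66 (Chrng, the gene not called); with TPM the squares range from 0.40 (Eno3) to 1.21.

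Muscle glycolysis and glycogen genes had 14 of 24 higher and 1 lower at a median of 0.84, with 3 higher and 1 lower with TPM (median 0.22) and 3 higher without day 3 replicate 4. Phkg1, the catalytic subunit of phosphorylase kinase, had 18.3, 17.1, 14.1, 6.68 and 19 at day 3 and 36.5, 34.7, 34.3, 42.1 and 57.1 at day 21 (1.44, SE 0.30, adjusted p = 0.000972), and Pygm, the muscle glycogen phosphorylase, 1.17 (adjusted p = 0.0105, and 0.0514 without day 3 replicate 4). Of 17 glycolytic genes not particular to muscle 8 were lower and 2 higher, at a median of -0.19.

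Genes of the daily clock vary with the hour of collection, which is not given in the sources used here, so the hour and the time after injury cannot be told apart. The circadian clock of muscle runs on a loop in which the factors BMAL1 (Arntl) and CLOCK drive the Per and Cry genes, whose proteins hold them back, and drive the output factors Dbp and Tef. Of 18 clock genes 9 were higher at day 21 and none lower, at a median of 0.61; with TPM 2 were higher and 1 lower (median 0.16), and without day 3 replicate 4 the count was 8. Per3 (ENSMUSG00000028957, chromosome 4 from 151003652 to 151044665) had 1.80, 1.58, 1.18, 0.891 and 2.69 at day 3 and 4.14, 5.23, 3.76, 4.23 and 9.19 at day 21. All day 21 samples were above day 3, and the log2 fold change was 1.24 (SE 0.23, adjusted p = 0.000404; 0.81 with TPM).

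Tef (ENSMUSG00000022389, chromosome 15 from 81802421 to 81826863) had 20.2, 24.4, 16.6, 14.4 and 21.9 at day 3 and 39.0, 44.0, 32.8, 39.6 and 52.5 at day 21 (1.06, SE 0.17, adjusted p = 0.000128; 0.45 with TPM), again without overlap. Per1, Per2, Dbp and Nr1d2, which encodes the repressor REV-ERB beta, had 0.98, 1.11, 0.98 and 1.10. At day 21 Per1 and Per2 were 1.26 and 1.63 log2 units above the uninjured muscles (adjusted p = 0.0146 and 0.0037), with replicate 5 at 24.7 for Per1 against 8.27 to 10.8 in the others and at 9.68 for Per2 against 2.21 to 2.74. Arntl had 0.545 ± 0.145 at day 3 and 0.589 ± 0.274 at day 21 (0.03, adjusted p = 0.906) beside 2.11 ± 0.635 without injury, and Nr1d1 was not called (0.55, adjusted p = 0.0877). Klf15, a metabolic transcription factor with a daily rhythm, had 1.30 (adjusted p = 0.00213).

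The promoters of Tef and Per1 are shown because they hold the E-box CACGTG, the site of the BMAL1 and CLOCK pair, in capitals. The windows are from RefSeq on GRCm38.p6 as above.
Tef, chr15:81802423-81802722 (plus strand): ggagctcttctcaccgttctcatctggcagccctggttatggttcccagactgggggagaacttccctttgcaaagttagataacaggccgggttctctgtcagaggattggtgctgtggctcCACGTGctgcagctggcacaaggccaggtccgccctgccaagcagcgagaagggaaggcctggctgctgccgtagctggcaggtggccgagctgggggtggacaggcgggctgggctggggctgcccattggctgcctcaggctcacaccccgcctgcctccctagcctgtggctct
Per1, chr11:69098699-69098998 (plus strand): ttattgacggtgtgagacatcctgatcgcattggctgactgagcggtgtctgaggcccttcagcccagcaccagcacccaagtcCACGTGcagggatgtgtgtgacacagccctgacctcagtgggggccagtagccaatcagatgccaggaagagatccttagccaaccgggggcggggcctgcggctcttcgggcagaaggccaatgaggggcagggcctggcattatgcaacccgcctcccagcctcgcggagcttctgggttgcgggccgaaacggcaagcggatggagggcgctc
CACGTG, which reads the same on both strands, was in 6 of the 20 windows of the clock list (30%), which covered 15 of its 18 genes, against 7.15% of all windows. It was in the windows of 5 of those 15 genes.

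Other genes with large increases were Inmt, Klhl33, Ctxn3 and Dupd1. Inmt, a methyltransferase, had 0.809, 0.802, 0.947, 0.439 and 1.44 at day 3 and 10.4, 6.95, 6.00, 10.1 and 14.2 at day 21 (2.45, SE 0.43, adjusted p = 0.000238). Klhl33, a kelch protein, had 2.26 and Ctxn3, cortexin 3, 2.06 (adjusted p = 0.000647 and 4.37e-05). Dupd1, a dual-specificity phosphatase of muscle, had 25.7, 24.9, 26.8, 20.001 and 34.6 at day 3 and 161, 138, 134, 173 and 37.9 at day 21 (2.10, SE 0.37, adjusted p = 0.000265). In each of these genes the groups did not overlap, with day 21 replicate 5 close to day 3 for Dupd1.

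Of 1185 tested long noncoding RNA genes 123 were higher and 55 lower, against 1175 and 2237 of 12165 protein-coding genes. The share of long noncoding genes called higher was near the 9.23% of all tested genes. The share called lower was below the 16.2% of all tested genes. These counts were not made with other scalings. Neat1, the RNA that builds nuclear paraspeckles, had 21.7, 20.1, 16.4, 17.9 and 33.8 at day 3 and 42.5, 68.8, 34.6, 52.6 and 164 at day 21 (1.49, SE 0.35, adjusted p = 0.00286). The libraries did not keep strand, so reads of a noncoding gene and of an overlapping gene on the other strand cannot be told apart.

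Of 28 growth factor genes, TGF-beta and insulin-like factors among them, 7 were lower (25%, against 16.2% of all tested genes). Another 3 were higher (10.7% against 9.23%), and the median of the list was -0.02. Igf1, which drives muscle growth, had 6.4, 7.46, 6.01, 5.70 and 11 at day 3 and 3.56, 3.77, 3.47, 3.59 and 3.78 at day 21 (-0.81, SE 0.22, adjusted p = 0.00845), next to 3.77 ± 0.636 without injury. Gdf11, a member of the TGF-beta family related to myostatin, had 1.33 to 2.53 at day 3 and 2.36 to 6.29 at day 21 (0.82, SE 0.19, adjusted p = 0.00213). Vegfa, the endothelial growth factor, had 1.35 (adjusted p = 0.0145, and 0.0632 without day 3 replicate 4 and 0.0544 without day 21 replicate 5), with 91.3 in day 21 replicate 5 against 18 to 39.2 in the others. Of 21 endothelial genes 1, Vegfa itself, was higher (4.76%, against 9.23% of all tested genes) and 2 were lower (9.52% against 16.2%). The summed FPKM of the list was 222 to 420.5 at day 3 and 317 to 474.5 at day 21.

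**Figure D5:**
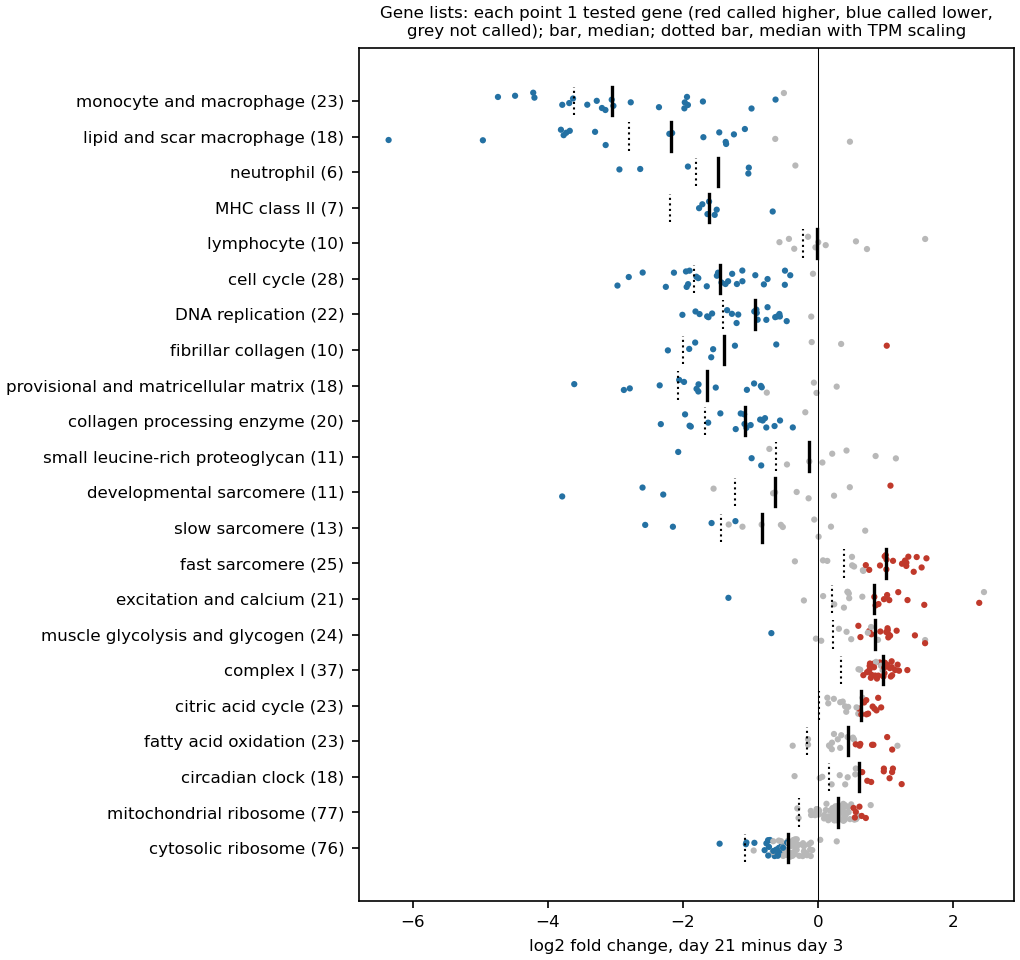
Each row is a gene list with the number of tested genes in brackets, each point a gene placed by its log2 fold change, day 21 minus day 3; solid bars are list medians and dotted bars the medians with TPM. Macrophage, cell cycle and matrix lists lie left of 0 (-3.05 for monocytes and macrophages), fast sarcomere and complex I right of it (1.01 and 0.96, and 0.38 and 0.34 with TPM).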

How the data were processed

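RNA of tibialis anterior muscle was sequenced as poly-A libraries without strand. Per the submitters' processing notes, reads were aligned with HISAT2 2.0.5 and counted per gene with featureCounts 1.5.0-p3; the genome build is not given in the sources used here. The authors deposited FPKM per gene and sample, with a scaling between samples that is not stated. Median-ratio scaling left the deposited values almost unchanged. Reads recovered as FPKM times gene length gave each sample's total (14376395 to 19819115 in the 10 samples); FPKM steps limit the precision of low genes.

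Genes were tested that reached an FPKM of 0.5 in 5 or more of the samples, with limma 3.58.1 (R 4.3.3) on log2(FPKM + 1), with a trend of variance with level, a mean per group over all 27 samples and no block, two-sided, with Benjamini-Hochberg adjustment over the tested genes and a threshold of 0.05. Fold changes are on the log2(FPKM + 1) scale, which understates the change of low genes. Context values against uninjured muscles come from that fit and share its samples. Tables and promoter searches used Python 3.11.15 and RefSeq windows on GRCm38.p6. The steps were tested on simulated data.

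The comparison, the gene lists and their members were chosen with earlier results of these data known. Named genes were the 15 largest increases and 15 largest decreases among called genes without overlap between groups, up to 4 called members of each list with the member that moved farthest the other way, and genes the study names; 1 gene that met this rule is not reported here. Csf1r, Adgre1, Chil3, Arg1, H2-Aa, Ighm, Mki67, Ccne2, Col3a1, Serpinh1, Dcn, Acta1, Ckm, Myh1, Myod1, Pax7, Runx1, Fbxo32, Cox8a, Eno3, Per1, Dbp, Nr1d1, Arntl, Neat1 and Igf1 were added after their values were seen. Alternatives were other pseudocounts, filters, scalings, weights, sample sets, blocks by replicate, and each of the 10 samples left out; leaving out day 7 replicate 5, alone or with day 3 replicate 5, was chosen after seeing the data.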

Additional observations from a re-analysis of the deposited data

Results flagged for a closer look

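Among the 114 genes with values in the text, each group of 5 samples was checked for a value set apart from its neighbours, by the gap to the nearest other sample over the range of the group, with a limit of 0.71. Of 228 groups 26 (11.4%) passed. About 1 in 20 would pass among independent normal values. The check used FPKM without logs, and the genes share samples and were partly chosen after their values were seen. An excess over chance can therefore not be read from these counts. Day 21 replicate 5 accounted for 12 of them, 7 as the highest and 5 as the lowest sample, and day 3 replicate 5 for 7, 6 as the highest and 1 as the lowest.

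Day 21 replicate 5 was high for Per1 (ratio 0.843), Per2 (0.929), Per3 (0.73), Timp4 (0.866), Col24a1 (0.713), Neat1 (0.736) and Vegfa (0.71). It was low for Chrna1 (0.76), Chrnd (0.807), Myod1 (0.767), Tnnt2 (0.719) and Dupd1 (0.713). Day 3 replicate 5 was high for Ccl8 (0.766), Ccl27a (0.882), Col24a1 (0.867), Dcn (0.746), Lamb2 (0.92) and Sln (0.794), and low for Chrng (0.74).

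Day 3 replicate 4 was high for Ighg2c (0.746) and low for Ckm (0.744). Day 21 replicate 4 was low for Spi1 (0.792) and Ccl8 (0.858) and high for Tnnc1 (0.825). Day 21 replicate 3 was high for Myh2 (0.908), and day 21 replicate 1 for Chil3 (1), which the other day 21 samples list at 0. No cause of these values was tested.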

How the results depend on the processing

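Over the alternatives, the calls numbered 2316 to 4076 with 1 of the 10 samples left out, the higher calls 587 to 1526, the lower calls 1729 to 2550 and those over 2-fold 928 to 1468. Sample quality weights gave 6472 calls (2884 higher, 3588 lower). TPM gave 169 higher and 4841 lower, own totals 314 and 4484, and quantile normalization 2108 higher. Calls over 2-fold were 2243 with TPM, 2074 with a pseudocount of 0.1 and 2135 with voom weights, against 1236. Log2 fold changes changed sign for Mdm2 (-0.09) and Mrpl16 (-0.05) with TPM and for Tpm2 (-0.10) and Aldoa (-0.19) with quantile normalization. These were the changes of sign among called genes of the 299 that met the naming rule, and genes not called were not counted; TPM ended the call of 54 of the 299 and leaving out day 3 replicate 4 of 62. The cause was not tested.

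Samples with the same replicate number did not deviate together in all pairs (correlations over genes of 0.048, -0.060, 0.14, -0.056 and 0.26), so the number was not taken as a pairing. With the replicate block 4069 genes were called, and with the letter of the sample name as a block 2925. Without day 7 replicate 5, chosen after seeing the data, 4056 were called, and without it and day 3 replicate 5, 4369 (1666 higher). FPKM steps of whole reads limit what low genes can show.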
